A study of Mus musculus with 4 samples.

Results

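Daam2 encodes a formin of the Wnt pathway, a protein that binds Dishevelled and promotes the assembly of actin filaments. Its counts were read from the Daam2 column of every deposited cell table, where it was 1 of 140 measured genes. It was chosen for its known level across glial subtypes, vessel cells and neurons and for its position, so those levels are given below as a description and without a test. The panel was imaged by MERFISH, an assay that reads barcoded RNA molecules in place over repeated rounds of hybridization. The samples were described as barrel cortex of mice at postnatal day 5, cut coronally at 10 µm. The whiskers on the right side of the snout of each animal had been lesioned at postnatal day 4, 24 h before. Each of 4 coverslips carried 1 wild-type section and 1 Cx3cl1(-/-) section, which lacks fractalkine, a chemokine. Males provided coverslips 1 and 2 and females provided coverslips 3 and 4. No unlesioned animal was among the samples analysed here. The tables give no genotype, hemisphere, region or cell type for a cell, and none was inferred for genotype, hemisphere or region. The sections were analysed whole, so levels by population and by position are not confined to cells known to be of barrel cortex.

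Wnt ligands bind Frizzled receptors and Lrp5 or Lrp6, and Dishevelled carries the signal either to beta-catenin and the Tcf/Lef factors or to actin and cell polarity. DAAM formins act on the Dishevelled side of this pathway. In the mouse nervous system Daam2 is known to raise Wnt signalling at the receptor complex and to hold back the differentiation of oligodendrocyte precursor cells (OPCs), which is why OPCs and the cells that follow them in that lineage were examined beside astrocytes.

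The tables held 863580 cells, 192921713 gene counts and 629180 Daam2 counts. Cells with at least 20 gene counts were kept, which left 794833 cells, with 4 coverslips as the replicates. The median was 123, 147, 175 and 268 gene counts per cell on coverslips 1 to 4, so the female coverslips were the deeper ones and depth and sex cannot be told apart. Blank barcodes, which match no probe, made up 1.16% to 1.48% of all counts. Cells were clustered on 32 marker genes, and 19 populations were named by their leading markers. A further 9 clusters, with 5.18% of the kept cells, had median counts below 97 per cell and were left out of the populations. Coverslips 1 to 3 had areas of low signal at the section margin. Low-signal squares, of side 200 coordinate units and with at least 20% of their cells under that minimum, contained 2.99% of the cells analysed (6.55%, 3.57%, 2.64% and 0.221% on coverslips 1 to 4), and results that rest on them are given with and without them.

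Daam2 was highest in astrocyte-like cells led by Slc1a3 and, close behind, in Pdgfrb-led cells. Their leading gene marks pericytes and other mural cells of vessels, but they also held endothelial counts: 16.8 Cldn5 counts per cell, against 30.6 in Cldn5-led cells, and 5.33 Pecam1 counts against 8.21. In the cluster of astrocyte-like cells led by Slc1a3, the glial glutamate transporter, the level was 2.66, 3.26, 3.37 and 4.41 counts per cell on coverslips 1 to 4 (3.43 ± 0.728, SD, n = 4). In Pdgfrb-led cells it was 2.42, 2.49, 2.83 and 4.16 (2.97 ± 0.807). The Gfap-led astrocyte-like cluster had 1.59, 1.82, 2.31 and 3.48 (2.30 ± 0.844). These 3 populations held the top places in this order on every coverslip, while their ranges over coverslips overlapped. Within a coverslip the Pdgfrb-led cells had 0.863 ± 0.0796 times the level of the Slc1a3-led cells (range 0.763 to 0.942). That order depended on the setting: Pdgfrb-led cells were the higher ones on 1 of 4 coverslips per gene count and when thinned to 100 gene counts, and on 3 of 4 with the finer clustering at resolution 2.

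**Figure D1:**
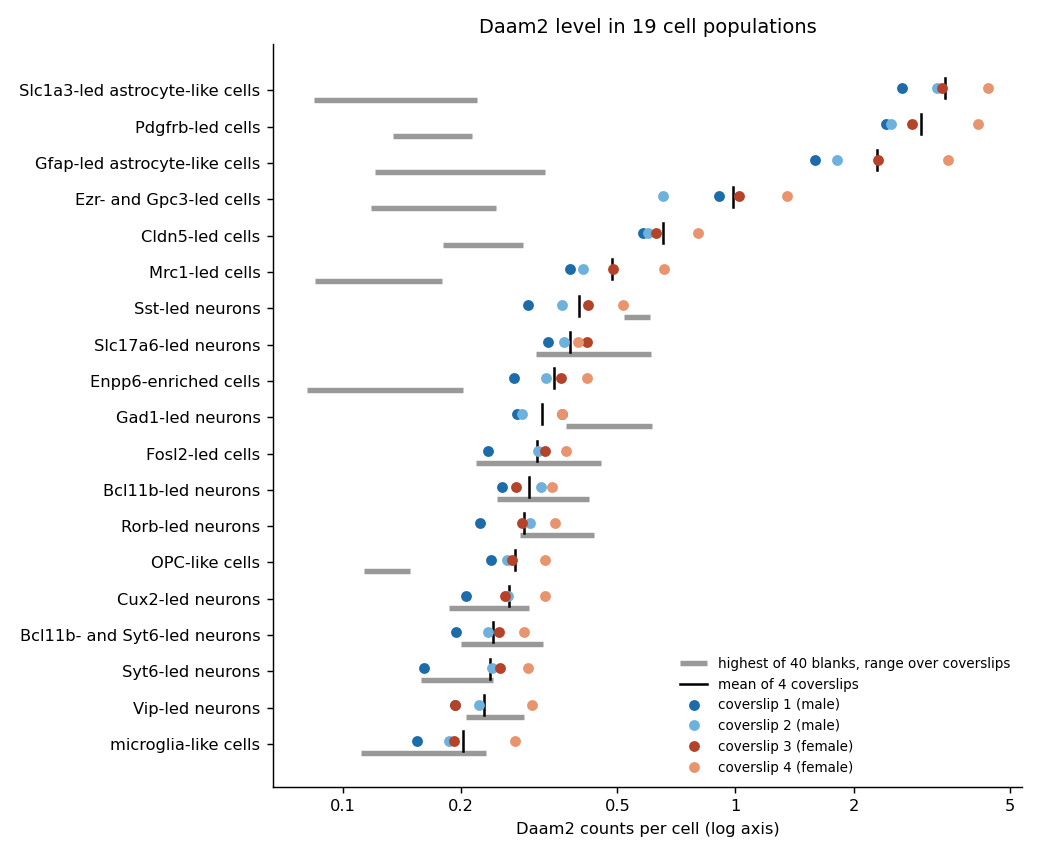
Daam2 counts per cell on a log axis in the 19 populations; dots are the 4 coverslips, the black line is their mean and the grey bar is the range over coverslips of the highest of 40 blank barcodes in the same cells. Slc1a3-led, Pdgfrb-led and Gfap-led cells lie at means of 3.43, 2.97 and 2.30, far above the blanks, while the dots of most neuron populations lie within or below the grey bar.

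The next places were also the same on every coverslip. Cells led by Ezr and Gpc3, to which no cell type name was given, had 0.907, 0.655, 1.02 and 1.36 counts per cell (0.985 ± 0.291). Cldn5-led cells, which carry the tight junction gene of vessel endothelium, had 0.580, 0.597, 0.628 and 0.802 (0.652 ± 0.102), and Mrc1-led cells, whose leading gene marks border macrophages, had 0.483 ± 0.125. From the seventh place down the populations ran from 0.399 ± 0.0937 in Sst-led neurons to 0.202 ± 0.0515 in microglia-like cells. Neighbours in this lower order mostly did not differ beyond their spread: Enpp6-enriched cells held places 8 to 10 and OPC-like cells places 12 to 15, and only microglia-like cells were last on all 4 coverslips.

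The share of cells with at least 1 Daam2 count was 75.5% in Slc1a3-led, 78.6% in Pdgfrb-led, 54.3% in Gfap-led and 35.9% in Cldn5-led cells, as means of the 4 coverslips, at median depths of 181, 160, 112 and 143 gene counts. It was 17.1% in OPC-like cells (median depth 120) and 13.4% in microglia-like cells (median depth 128), a myeloid cell type given here as the comparison for stray counts. Among single cells the spread was wide in both leading populations. On coverslips 1 to 4, 21.1%, 27.6%, 28.2% and 37.2% of Slc1a3-led cells and 17.6%, 17.6%, 22.4% and 38.4% of Pdgfrb-led cells had 5 or more Daam2 counts. The upper tail was heavier in astrocyte-like cells, where 7.97% ± 4.04 of the Slc1a3-led cells had 10 or more counts, against 3.86% ± 3.43 of the Pdgfrb-led cells.

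Vessels in brain are wrapped by astrocyte endfeet, and the Daam2 counts of vessel cells were set beside 3 markers of astrocytes: Slc1a3, the water channel gene Aqp4 and the folate enzyme gene Aldh1l1. In Pdgfrb-led cells Daam2 stood at 86.3% ± 7.96 of the level in Slc1a3-led astrocyte-like cells, whereas Slc1a3, Aqp4 and Aldh1l1 stood at 10.0%, 10.8% and 10.7% of theirs. In Cldn5-led cells Daam2 stood at 19.2%, close to the 13.7%, 18.7% and 13.9% of the same markers. Gfap, another astrocyte gene, stood higher than these markers, at 27.5% in Pdgfrb-led and 53.8% in Cldn5-led cells. Aldoc and Sox9, further genes of astrocytes, stood at 16.2% and 11.5% in Pdgfrb-led cells and at 19.5% and 16.3% in Cldn5-led cells. Of the Pdgfrb-led cells, 28.8% ± 4.41 had no count of any of the 3 markers, and these shallower cells (median depth 106.5 gene counts) had 1.86, 2.00, 1.96 and 3.18 Daam2 counts per cell (2.25 ± 0.625). Cldn5-led cells without the 3 markers had 0.366 ± 0.0684. The part of astrocyte RNA in these levels was not tested. The difference between the vessel populations was larger in marker-free cells (6.09 ± 0.586-fold) than in all of them (4.51 ± 0.475-fold, range 4.17 to 5.18).

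**Figure D2:**
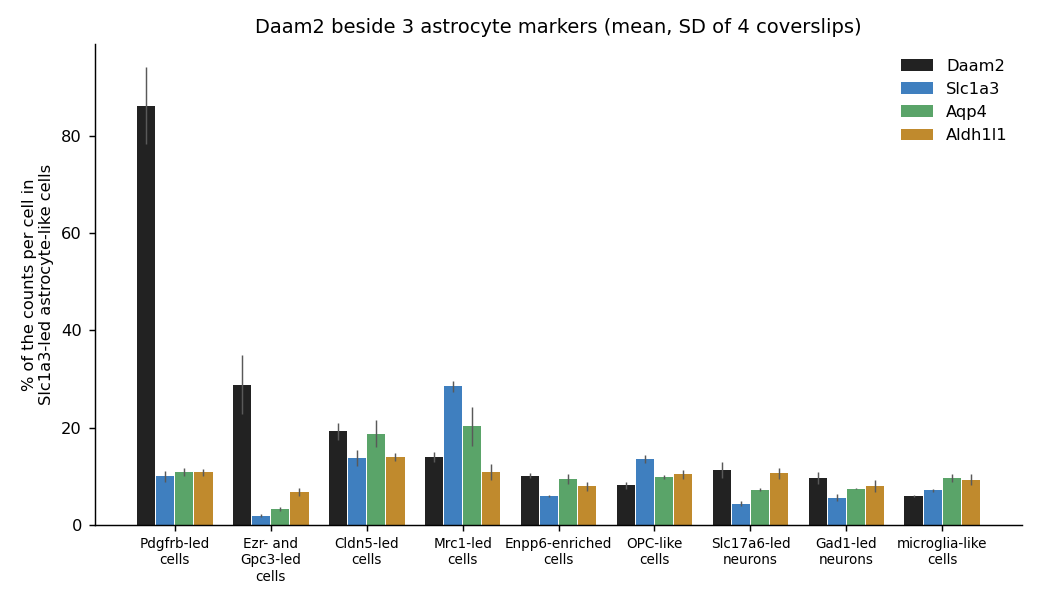
Level of Daam2, Slc1a3, Aqp4 and Aldh1l1 in 9 populations as a percentage of the counts per cell in Slc1a3-led astrocyte-like cells; bars are means and lines the SD of 4 coverslips. Daam2 reaches 86.3% in Pdgfrb-led cells, where the 3 markers lie near 10%; in Cldn5-led, OPC-like and microglia-like cells Daam2 lies at or near the marker bars.

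By distance to the nearest astrocyte-like cell, the level in Pdgfrb-led cells was 2.89 ± 0.676 within 10 coordinate units, 3.12 ± 0.762 at 10 to 20 units, 2.95 ± 0.884 at 20 to 30 units and 2.89 ± 0.842 farther away. Over the same distances Slc1a3 in these cells went from 2.49 ± 0.418 to 1.30 ± 0.194 counts per cell. OPC-like cells had 0.367 ± 0.0526 Daam2 counts within 10 units and 0.261 ± 0.0325 beyond 30 units.

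Within the Cldn5-led population Daam2 was higher in cells that also carried Pdgfrb counts. Cldn5-led cells with no Pdgfrb count had 0.306, 0.383, 0.393 and 0.472 Daam2 counts on coverslips 1 to 4 (28.9 ± 4.08 per 10000 gene counts). Those with 1 or 2 Pdgfrb counts had 0.714 ± 0.125, and those with 3 or more had 1.31, 1.51, 1.29 and 1.77 (58.9 ± 11.6 per 10000 gene counts). The no-Pdgfrb and 3-or-more groups did not overlap, but their median depths were 117 and 228 gene counts, and the part of depth in this difference was not tested. In the converse split the 1026 Pdgfrb-led cells without a count of Cldn5 or Pecam1, another endothelial gene, had 215 ± 45.8 Daam2 per 10000 gene counts, against 160 ± 18.5 in those with such counts. Per cell the order was the other way, with 1.77 ± 0.645 Daam2 counts in the former and 3.07 ± 0.810 in the latter. Their median depths were 64 and 168 gene counts, and the part of depth was not tested.

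In the oligodendrocyte lineage Daam2 was low. OPC-like cells, led by Pdgfra, Cspg4 and Sox10, had 0.238, 0.262, 0.269 and 0.326 counts per cell (0.274 ± 0.0374). Enpp6-enriched cells, with a leading gene that marks newly formed oligodendrocytes, had 0.272, 0.330, 0.360 and 0.419 (0.345 ± 0.0611). The OPC-like level was the lower one on all 4 coverslips, at 0.800 ± 0.0544 times that of the Enpp6-enriched cells. The ratio was 0.409 ± 0.116 with marker gates in place of clusters and 0.615 ± 0.05004 at resolution 2, below 1 on all 4 coverslips in both. With each cell thinned to 100 gene counts the ratio was 0.925 ± 0.187, above 1 on 1 coverslip, after 42.1% of OPC-like and 39.5% of Enpp6-enriched cells had been left out as too shallow. Both populations lay above all 40 blanks on every coverslip. Set beside the astrocyte markers, Daam2 stood at 8.09% of the Slc1a3-led astrocyte-like level in OPC-like cells, below Slc1a3 (13.5%), Aqp4 (9.86%) and Aldh1l1 (10.4%). In Enpp6-enriched cells it stood at 10.1%, above Slc1a3 (5.81%), Aqp4 (9.39%) and Aldh1l1 (7.89%). Of the other astrocyte genes, Gfap (32.7%) and Aldoc (13.1%) stood above Daam2 in Enpp6-enriched cells and Sox9 (6.03%) below it. In OPC-like cells Gfap (21.6%), Aldoc (20.4%) and Sox9 (52.2%) all stood above Daam2. In OPC-like cells without the 3 astrocyte markers Daam2 ranged from 0.0867 to 0.110 counts per cell, above all blanks on 3 of 4 coverslips. Enpp6-enriched cells without these markers ranged from 0.150 to 0.309, above all blanks on all 4.

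In neurons Daam2 could mostly not be told from the background of the assay. The 9 neuron populations together had 0.252, 0.296, 0.321 and 0.356 counts per cell, while the highest blank in the same cells ranged from 0.274 to 0.453, and Daam2 lay above all blanks on 1 of 4 coverslips. The median blank in these cells was lower, at 0.0732, 0.0778, 0.0864 and 0.0942 counts per cell on coverslips 1 to 4. Sst-led and Gad1-led neurons lay below the highest blank on every coverslip. Neurons were deep, with a median of 242 gene counts, and per 10000 gene counts they had 11.1 ± 1.48 Daam2, against 13.7 ± 1.81 in microglia-like cells and 167 ± 19.6 in all astrocyte-like cells. Pooled over both kinds, vessel-led cells had 4.23 ± 0.549 times the level of neurons per cell and 6.93 ± 1.34 times per gene count. The kinds were unlike: Pdgfrb-led cells had 9.62 ± 1.46 times the neuron level per cell, and Cldn5-led cells 0.652 counts against 0.306 in neurons.

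Within astrocyte-like cells the count of Daam2 was higher in cells with more Gfap, the gene of an intermediate filament that is raised in reactive and in fibrous astrocytes. Cells without a Gfap count had 1.56, 2.19, 2.13 and 3.12 Daam2 counts on coverslips 1 to 4. The Gfap-positive cells of each coverslip were split by Gfap count per unit of cell volume into 3 classes of equal size. The highest class had 3.28, 3.68, 4.38 and 5.27. The highest class lay above the Gfap-free cells on each coverslip, at 1.88 ± 0.228-fold (range 1.68 to 2.10), and the middle and lowest classes lay between, at 3.50 ± 0.664 and 3.22 ± 0.800 counts. The depth of the cells moved with Gfap as well, from a median of 126 gene counts without Gfap to 216 in the highest class. Per 10000 gene counts the classes had 147 ± 23.9, 161 ± 18.5, 185 ± 17.9 and 176 ± 17.3 Daam2, a 1.21 ± 0.0943-fold difference between the end classes, and in cells thinned to 100 gene counts the difference was 1.17 ± 0.0964-fold, after 40.3% of the Gfap-free cells and 16.4% of the highest class had been left out as too shallow.

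**Figure D3:**
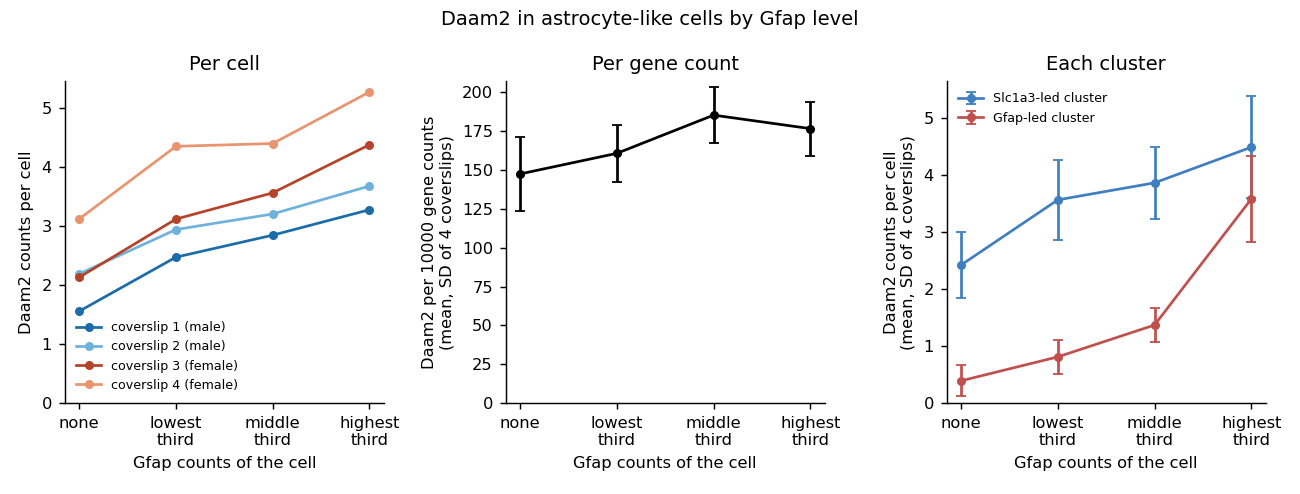
Daam2 in astrocyte-like cells with no Gfap count and in 3 equal classes of the Gfap-positive cells, ranked by Gfap count per cell volume. Panels show counts per cell on each coverslip (left), Daam2 per 10000 gene counts (middle) and counts per cell in each cluster (right). The middle and right panels give means and SD of 4 coverslips. Per cell all 4 lines go up, to 3.28 to 5.27 counts, while per gene count the end classes differ by 147 against 176.

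Other genes give a scale for this difference. Over the same cells Aqp4 was 2.42 ± 0.265-fold and Vim, another intermediate filament gene of reactive astrocytes, 2.88 ± 0.477-fold higher in the highest Gfap class, Aldoc, a glycolytic enzyme gene of astrocytes, was 1.83 ± 0.304-fold and Slc1a3 1.21 ± 0.105-fold higher, and Aldh1l1 was at 0.995 ± 0.0682. Daam2 ranked 36 among the 139 genes other than Gfap. The clusters differed in their shape. In Slc1a3-led cells Daam2 went from 2.42 ± 0.578 without Gfap to 4.49 ± 0.897 in the highest class. In Gfap-led cells it went from 0.394 ± 0.274 to 3.58 ± 0.762, and from 54.8 ± 21.6 to 159 ± 18.4 per 10000 gene counts. The Gfap-led cells without Gfap were shallow, with a median of 45 gene counts, and 46.3% of them lay in low-signal squares, where they had 0.0364 ± 0.0135 Daam2 counts on the 3 coverslips with enough cells. Without those squares they had 0.526 ± 0.173.

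Nearness to vessels made little difference to astrocyte-like cells. They had 2.92 ± 0.667 Daam2 counts within 10 units of a vessel-led cell, 3.32 ± 0.739 at 10 to 20 units, 3.37 ± 0.724 at 20 to 30 units, 3.33 ± 0.760 at 30 to 50 units and 3.05 ± 0.874 farther away. Cells within 20 units had 1.07 ± 0.0691 times the level of those beyond 50 units per cell and 0.953 ± 0.0294 times per gene count, so the direction turned with the unit. It also turned per cell in the Slc1a3-led cluster alone (0.963, below 1 on all 4 coverslips) and with a limit of 10 units (0.970). The share of Gfap-led cells was 35.9% within 10 units and 15.7% beyond 50 units. Gfap and Aqp4 differed more along this distance. Gfap was 22.3 counts per cell within 10 units and 5.53 beyond 50 units, and Aqp4 was 10.9 and 6.89.

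Per gene count, the distance to the section edge gave a curve with its top at 200 to 500 units. Astrocyte-like cells had 123 ± 21.5 Daam2 per 10000 gene counts within 100 units of the edge, 165 ± 26.1 at 100 to 200 units, 199 ± 24.6 at 200 to 500 units, 185 ± 17.8 at 500 to 1000 units and 158 ± 19.1 deeper. Per cell the outermost band had 1.68, 2.22, 2.63 and 3.29 counts on coverslips 1 to 4, and the band at 200 to 500 units had 2.31, 3.61, 4.20 and 5.64, the higher of the pair on each coverslip. The outermost band was rich in Gfap-led cells, at 49.1% of its cells against 11.8% at 200 to 500 units. The Slc1a3-led cluster alone ran along the same curve, with 144 ± 22.2, 176 ± 18.9, 207 ± 19.3, 191 ± 18.1 and 157 ± 20.3 per 10000 gene counts. Leaving out the low-signal squares gave 125 ± 20.1 in the outermost band and 203 ± 21.4 at 200 to 500 units. Per cell the curve was not the same on every coverslip: beyond 1000 units the level was 2.52, 2.80, 2.97 and 3.90, which on coverslip 1 was the highest of its 5 bands. Cells within 200 units of the edge had 0.901 ± 0.118 times the level of the inner ones. The curve was not particular to Daam2: Slc1a3 had 9.24, 15.7, 17.1, 15.2 and 12.8 counts per cell over the 5 bands. Aqp4 and Aldh1l1 ran otherwise, from 15.3 and 5.24 counts per cell in the outermost band to 7.40 and 4.24 in the deepest.

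**Figure D4:**
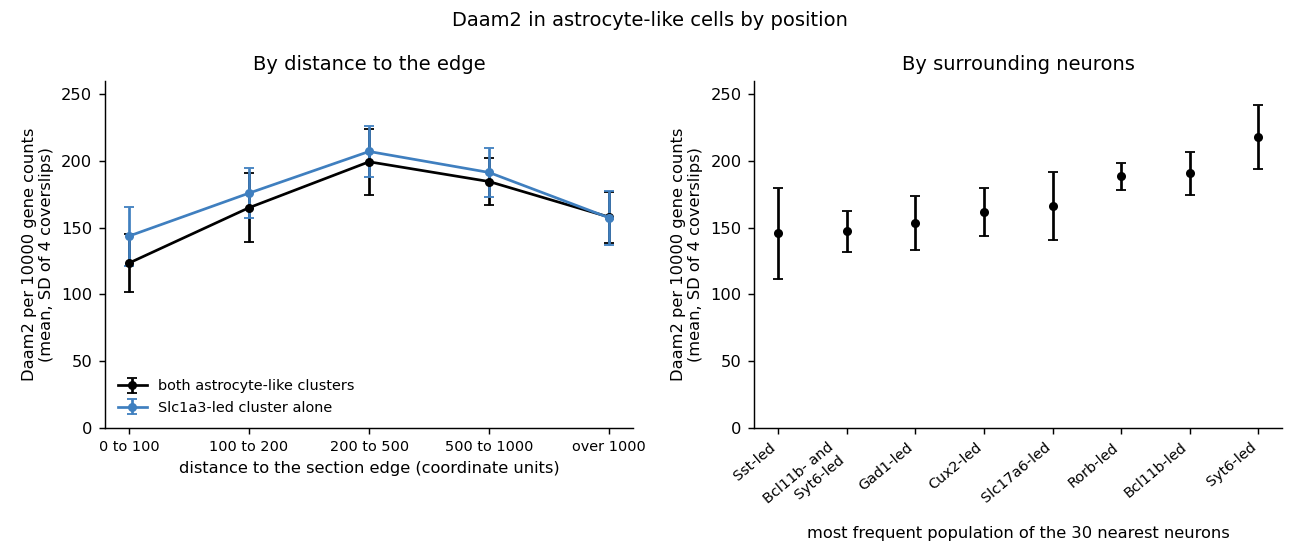
Daam2 per 10000 gene counts in astrocyte-like cells by distance to the section edge (left, both clusters in black and the Slc1a3-led cluster in blue) and by the most frequent population among the 30 nearest neurons (right); points are means and bars the SD of 4 coverslips. The curve is highest at 200 to 500 units (199), and the Syt6-led neighbourhood is the highest at 218.

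The level also differed with the surrounding neurons. Each astrocyte-like cell was assigned to the most frequent population among its 30 nearest neurons. The pair compared here had the highest and the lowest mean Daam2 count among neighbourhoods with at least 1000 astrocyte-like cells on every coverslip. It was picked by that value, so the difference describes the extremes and is no test. Among Syt6-led neurons, whose leading gene marks cortical layer 6 neurons, astrocyte-like cells had 3.46, 3.72, 3.67 and 5.46 Daam2 counts. Among Gad1-led neurons they had 1.99, 2.50, 2.79 and 3.68. The Syt6-led neighbourhood was the higher one on all 4 coverslips, at 1.51 ± 0.175-fold per cell and 1.43 ± 0.179-fold per gene count, and at similar depth (medians of 168 and 154 gene counts). Slc1a3 ran the other way, with 11.4 counts per cell among Syt6-led and 13.8 among Gad1-led neurons, while Aqp4 ran the same way as Daam2, with 10.4 and 6.45.

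Per 10000 gene counts, astrocyte-like cells had 218 ± 23.9 Daam2 among Syt6-led, 191 ± 16.1 among Bcl11b-led, 188 ± 10.2 among Rorb-led, 166 ± 25.5 among Slc17a6-led, 162 ± 18.03 among Cux2-led, 153 ± 20.1 among Gad1-led and 147 ± 15.6 among Bcl11b- and Syt6-led neurons. Below the Syt6-led neighbourhood, the means of neighbours in this order differed by less than the larger of their SDs. Astrocyte-like cells among Sst-led neurons had 0.984, 1.06, 2.86 and 4.63 counts per cell, lower on both male coverslips than on the female ones. Of these cells 36.5% lay in low-signal squares, and without them the values were 2.21, 2.73, 3.05 and 4.63.

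**Figure D5:**
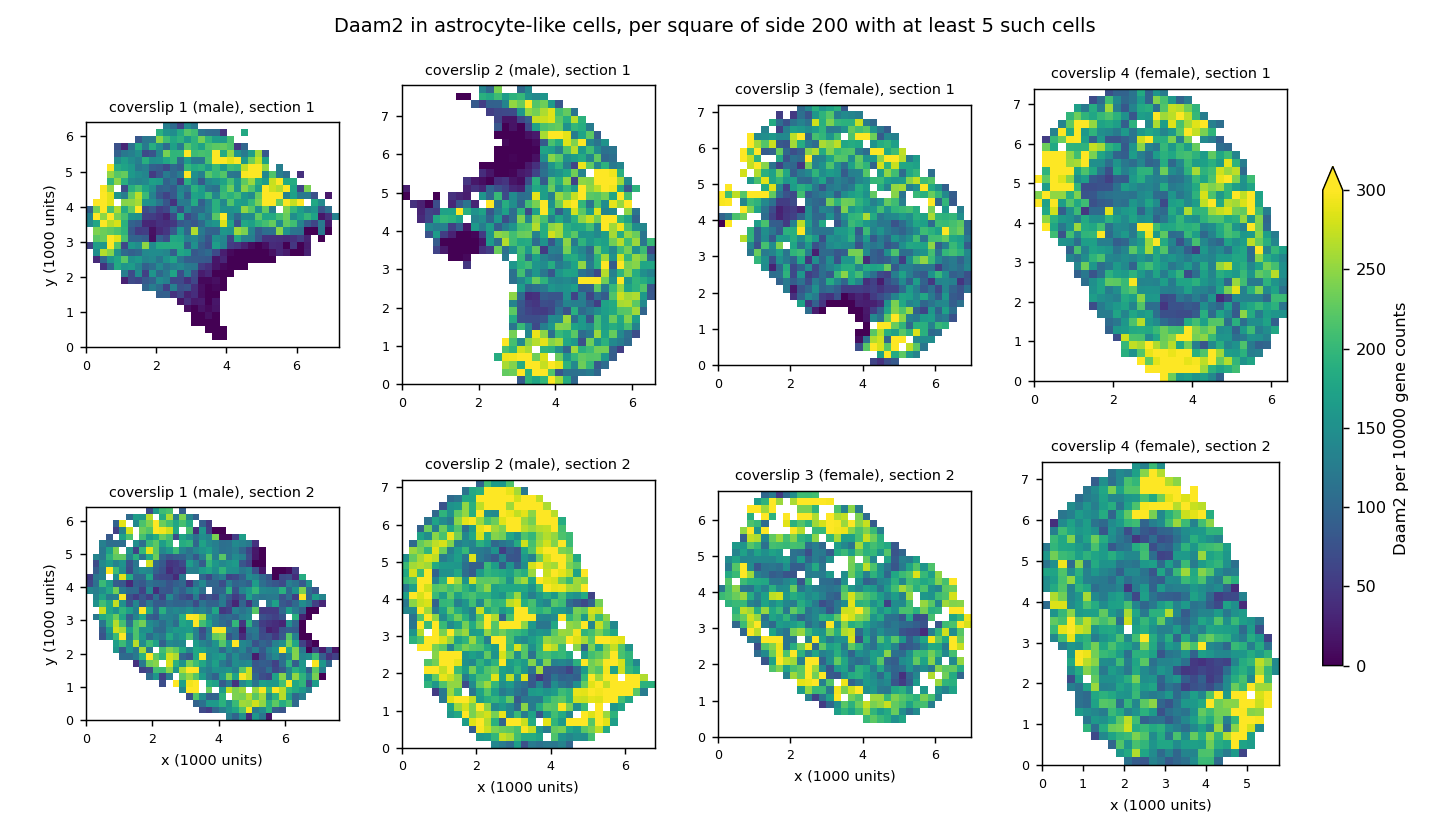
Daam2 per 10000 gene counts in astrocyte-like cells for squares of side 200 coordinate units with at least 5 such cells, on the 8 sections; position is in coordinate units divided by 1000 and the colour scale ends at 300. Bright bands and darker patches inside recur from section to section, and dark squares at the margin are largest on section 1 of coverslips 1 and 2.

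On the map of squares the middle 80% of squares spanned 98.97 to 258 Daam2 per 10000 gene counts on section 2 of coverslip 4 and 15.6 to 248 on section 1 of coverslip 1. The margin of coverslips 1 to 3 held squares with no Daam2 count at all. The dark margin overlapped the low-signal squares, in which astrocyte-like cells had 0.204, 0.145, 1.20 and 2.98 Daam2 counts on coverslips 1 to 4, at a median depth of 44 gene counts.

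The 8 sections differed within their coverslips. Astrocyte-like cells had 2.35 and 2.46 Daam2 counts on the sections of coverslip 1, 2.50 and 3.36 on coverslip 2, 2.40 and 4.17 on coverslip 3, and 3.65 and 4.97 on coverslip 4. The higher section exceeded the lower one by 1.05, 1.35, 1.74 and 1.36-fold per cell. The sections of a coverslip differed by 1.03, 1.20, 1.14 and 1.03-fold per gene count, and on coverslips 1 and 4 the section higher per cell was the lower one per gene count. Pdgfrb-led cells had 2.40 and 2.44, 2.42 and 2.55, 2.34 and 3.38, and 3.43 and 4.89, and their higher section was the same one as in astrocyte-like cells on each coverslip. The deeper section of each coverslip was also that section: its median was 168, 166, 242 and 323 gene counts against 153, 156, 147 and 232. Which section is wild-type and which is Cx3cl1(-/-) was not assigned, so these values carry no genotype comparison.

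Across the 19 populations the genes whose level ran most like that of Daam2, by Pearson correlation of log2(mean counts per cell + 0.05), were Slc9a3r1, a scaffold protein gene (r = 0.87), Id1, a target of BMP signalling (0.77), Aldh1l1 (0.75), Pdgfrb (0.75) and Vim (0.74). Wnt1 (-0.63), Nlgn2, a synaptic adhesion gene (-0.61), and Cx3cl1 (-0.59) were at the other end. These are descriptions over 19 points that share coverslips and depth, and Aldh1l1 and Pdgfrb had been used to form the populations. Wnt1 was within the assay background, so its correlation cannot be read as a pattern of the gene. Over all cells it had 3.71 per 10000 gene counts in females and 4.85 in males, below the highest blank (5.96 to 17.4). Slc9a3r1 had, like Daam2, a high mean level both in Slc1a3-led cells (3.31 counts per cell) and in Pdgfrb-led cells (2.58), with 1.06 in Cldn5-led and 0.457 in OPC-like cells. Id1 and Vim were higher in Cldn5-led and Pdgfrb-led cells than in both astrocyte-like clusters. Daam2 in Pdgfrb-led cells lay above the Gfap-led cluster and, per cell, below the Slc1a3-led one, an order that depended on the setting.

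The panel held 33 genes of a Wnt list of receptors and of the pathway inside the cell, Daam2 included. A difference of at least 2-fold on all 4 coverslips, with only the higher level required to lie above all blanks, was counted. Between Pdgfrb-led and Cldn5-led cells it was seen for 3 of the 33, against 10.2% of the 108 genes not used for clustering. Beside Daam2 these were the co-receptor genes Ptk7 (2.55 ± 0.305-fold) and Ror1 (2.52 ± 0.172-fold), and the median ratio was 1.08 over the list and 1.02 over those genes. Between Slc1a3-led and OPC-like cells it was seen for 7 of the 33, against 21.3% of those genes. Beside Daam2 at 12.4 ± 0.969-fold they were the receptor genes Fzd2 (5.36 ± 0.228-fold), Fzd10 (4.02 ± 0.365-fold), Fzd7 (2.95 ± 0.381-fold), Fzd1 (2.60 ± 0.233-fold) and Fzd5 (2.48 ± 0.117-fold) and the transcription factor gene Tcf7l1 (3.77 ± 0.151-fold).

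Against all 9 neuron populations, 4 of the 33 were at least 2-fold higher in Slc1a3-led cells, against 13.9% of those genes: Daam2 (11.1 ± 0.896-fold), Fzd2 (7.87 ± 1.49-fold), Tcf7l1 (4.93 ± 0.914-fold) and the co-receptor gene Lrp5 (3.19 ± 0.165-fold). In Pdgfrb-led cells 9 of the 33 were, against 17.6%: Fzd6 (20.2 ± 6.73-fold), the transcription factor gene Tcf7 (12.8 ± 1.73-fold), Adgra2, a co-receptor gene of Wnt7 signalling (12.3 ± 1.29-fold), Lrp5 (10.2 ± 0.795-fold), Daam2 (9.62 ± 1.46-fold), Tcf7l1 (6.89 ± 1.01-fold), Ror1 (5.10 ± 0.786-fold), Fzd4 (5.09 ± 0.458-fold) and Lef1 (3.78 ± 0.828-fold). Fzd6 and Tcf7 were also among the leading genes of Cldn5-led cells, whose markers Pdgfrb-led cells shared. Lef1 (3.07 against 1.98 counts per cell) and Fzd4 (1.42 against 0.950) were likewise higher in Cldn5-led than in Pdgfrb-led cells. Adgra2 (4.73 against 5.70), Tcf7l1 (1.02 against 1.17) and Lrp5 (2.18 against 3.16) were lower there. Of the 9, only Daam2 and Ror1 were at least 2-fold higher in Pdgfrb-led than in Cldn5-led cells on all 4 coverslips. Daam2, Tcf7l1 and Lrp5 were the genes of the list in both comparisons with neurons, which share the neurons. In neurons the means of Fzd2, Fzd4, Fzd6, Tcf7, Tcf7l1 and Ror1 were 0.101 to 0.187 counts per cell. These lay under the highest blank in neurons (0.274 to 0.453), so their folds are over levels within the assay background. Daam2 (0.306) and Lrp5 (0.309) lay within that range of blanks, and Adgra2 (0.470) and Lef1 (0.545) above it.

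Sex was the one condition tested, because no genotype was assigned to the sections, and Daam2 did not pass. Over all kept cells it made up 31.2 and 36.2 per 10000 gene counts on the male and 32.3 and 31.7 on the female coverslips, so the groups overlapped. In counts summed over all cells, fewer cells of a type and less RNA per cell cannot be told apart. The log2 difference of female minus male was -0.03 ± 0.17 (SE; edgeR's quasi-likelihood test, adjusted p = 0.962 over 140 genes, n = 2 against 2), and the exact permutation test, which cannot go below 0.333 here, gave p = 1 (two-sided). In astrocyte-like cells the values were 146 and 193 on male and 163 and 168 on female coverslips, which also overlapped. The log2 difference was -0.01 ± 0.18 (edgeR's quasi-likelihood test, adjusted p = 0.973; exact permutation p = 1). These p-values measure the spread between coverslips, and the labels do not say which sections share an animal.

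Of the 33 Wnt-list genes 2 were lower in females over all cells and none was higher, against 5% of the 140 genes called in edgeR's test. Gsk3b, a kinase of the beta-catenin destruction complex, stood at 165 and 195 per 10000 gene counts in males and at 112 and 109 in females, without overlap, as did 41.4% of all genes (log2 difference -0.66 ± 0.19, edgeR adjusted p = 0.0226). This call was lost when the test was run on the 100 genes above the blanks, with cell volume as offset, and without male replicate 1 or female replicate 2, where edgeR called 0 genes. Gsk3b and Nfatc1 were also among the leading genes of low-count clusters, both of them in clusters 23 and 26; the part of these cells in the difference was not tested. Nfatc1, a calcium-dependent transcription factor gene, had 14.6 and 10.3 in males and 7.45 and 4.42 in females (-1.02 ± 0.20, edgeR adjusted p = 5.5e-05), but it lay below the highest blank barcode on every coverslip. The median log2 difference was 0.02 over the list and -0.003 over all genes. In astrocyte-like cells edgeR called 0 of 140 genes (0%; 17 had an unadjusted p under 0.05, and DESeq2 called 2), and 43.6% of the genes did not overlap between the sexes.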

How the data were processed

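MERFISH imaged 4 coverslips (2 male, 2 female, 2 sections each). The deposited counts are decoded transcripts per segmented cell, whole numbers without normalization for 140 genes and 40 blank barcodes; the deposited volume and centre of each cell have no unit per the file headers. Decoding and segmentation software is not given in the sources used here. The gene and the lists were chosen with earlier results of these data known.

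Cells with under 20 gene counts were left out. Tissue was gridded in squares of side 100, and the 2 biggest contiguous areas holding 4 or more cells a square were taken as the sections. Counts of 32 markers, scaled to 200 per cell and log-transformed, were clustered by the Leiden method (leidenalg 0.10.2, resolution 1, 15 neighbours) in 60000 cells, and every kept cell took the most frequent cluster among its 15 nearest of 16000 of these. Clusters were named by their leading genes (1 marker used in clustering is not reported here), and "-like" needed at least 3 markers. No doublet caller was run.

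Levels are mean counts per cell on each coverslip, given as mean ± SD of 4 coverslips. Sexes were compared with edgeR 4.0.16 (R 4.3.3, TMM factors, Benjamini-Hochberg over 140 genes) on counts summed per coverslip, after a test on simulated data. Alternatives were counts per volume or per 10000 gene counts, other minimums, cells thinned to 100 gene counts, marker gates, resolution 2, DESeq2 1.42.0 and each coverslip left out. Genes named are Daam2, the 5 most and 3 least alike across populations, astrocyte markers, and Wnt-list genes that passed; Wnt-list genes at least 2-fold apart between populations were added after their values were seen. Intervals cover the spread of coverslips only.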

Additional observations from a re-analysis of the deposited data

Results flagged for a closer look

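Of 93 groups of 4 coverslip values checked, 1 had a coverslip set apart by Dixon's criterion, which chance gives in about 1 of 20 groups: astrocyte-like cells among Syt6-led neurons had 3.46, 3.72, 3.67 and 5.46 Daam2 counts per cell, with a gap of 0.868 of the range below coverslip 4, the deepest one. Among the clusters left out for low counts, Daam2 lay above all 40 blanks on every coverslip in 2. Cluster 12, led by Ezr, Emx2 and Fzd1 with Slc1a3 among its leading genes, had 0.744, 0.819, 0.890 and 1.01 counts per cell (0.865 ± 0.112, 16171 cells, median depth 94 gene counts), a level between those of Ezr- and Gpc3-led and Cldn5-led cells. Cluster 25, led by Wnt6, had 0.169, 0.192, 0.235 and 0.138 (0.184 ± 0.0411, 2005 cells, median depth 45).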

How the results depend on the processing

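Of 129 alternatives over 11 results, 96 kept the direction and stayed within the spread between coverslips, or on the same side of the threshold; 23 moved and 10 reversed, and the cause was not tested. Alternatives for the 2 ratios of Pdgfrb-led cells, low-signal squares, the Slc1a3-led cluster alone and the smallest neighbourhood were added after seeing the data. Per 10000 gene counts, astrocyte-like over other cells was 10.2 (8.08 per cell), the highest Gfap class over Gfap-free cells 1.21 (1.88), OPC-like over Enpp6-enriched cells 0.882 (0.800) and vessel-led cells over neurons 6.93 (4.23); in cells thinned to 100 gene counts these were 9.42, 1.17, 0.925 and 6.87. Near over far from vessels (1.07) reversed to 0.953 per gene count, 0.951 when thinned, 0.978 without squares with 5% or more cells below the minimum, 0.970 within 10 units, and 0.963 per cell and 0.951 per gene count in the Slc1a3-led cluster alone; per volume it was 1.17. Pdgfrb-led over Slc1a3-led cells (0.863) was 0.780 per volume, 0.968 thinned and 0.997 at resolution 2 (above 1 on 3 of 4 coverslips), and Pdgfrb-led over Cldn5-led cells (4.51) was 3.96 per volume and 6.09 without astrocyte markers. OPC-like over Enpp6-enriched cells was 0.409 with marker gates, 0.615 at resolution 2 and 0.741 without the 5% squares, and gated vessel cells over neurons gave 3.21. Gfap classes by share of counts gave 1.65, and the Slc1a3-led cluster alone 1.24 per gene count. The edge ratio (0.901) was 0.751 within 100 units. The neighbourhood ratio (1.51) was 2.37 with groups of 50 cells, where Sst-led was lowest, and 1.32 in the Slc1a3-led cluster alone per gene count.

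Leaving out each coverslip gave 7.84 to 8.29, 1.81 to 1.95, 0.774 to 0.817, 4.01 to 4.42, 1.04 to 1.09, 0.858 to 0.951, 1.43 to 1.57, 4.28 to 4.62 and 0.837 to 0.897 for the ratios of astrocyte-like over other cells, Gfap, OPC-like, vessel over neurons, vessel distance, edge, neighbourhood, Pdgfrb over Cldn5 and Pdgfrb over Slc1a3. The log2 sex difference ranged from -0.16 to 0.11 over all cells and from -0.17 to 0.15 in astrocyte-like cells, positive without male replicate 2, and with cell volume as offset it was 0.40 and 0.46 (edgeR adjusted p = 0.518 and 0.411). Over all cells edgeR called 7 genes, 5 without TMM factors, 0 with the volume offset, 0 of 100 after a filter on blanks, and 0 to 6 with 1 coverslip left out; DESeq2 called 7. No paired analysis of the sexes was possible because the labels number no replicates: the numbers used here follow accession order and only name the coverslips. Each group has 2 coverslips, each pooling both genotypes, and in neurons the blanks limit what can be read.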
